A study of Schizosaccharomyces pombe with 3 samples.

Results

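The 10 genes described here serve iron uptake, its regulation and the export of iron-sulfur precursors from mitochondria in the fission yeast Schizosaccharomyces pombe. They were taken by name from the platform annotation of the array (fio1, fip1, frp1, sib1, str1, str2, str3, fep1, php4 and atm1), and all 10 of the 10 listed were measured, among 4981 features in all. Each was read by 1 probe set, and none of these probe sets carried a suffix that marks probes shared between transcripts. The study measured total RNA of 3 cultures on 3 Affymetrix arrays. Wild type was represented by the prototrophic strain SpHT219 (h-). The deletion culture was SpHT257-1 (h- eca39∆::kanMX4), which lacks the branched-chain amino acid aminotransferase Eca39. The adapted culture was this deletion strain after growth beside wild-type cells on an EMM2-N plate with 15 mM glutamate that was supplemented with isoleucine, leucine and valine (2 mM), whereas the other cultures started from YE plates with the same amino acids. In all 3 cases the cells grew in liquid YE with 2 mM of these amino acids from an OD near 0.1 to an OD near 1. The effect of adaptation and that of the starting plate cannot be told apart, and nothing in the labels says that a culture was grown more than once.

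Fission yeast takes up iron mainly by a reductive and a siderophore route. In the reductive route, the reductase Frp1 converts ferric to ferrous iron at the cell surface, and a complex of the multicopper ferroxidase Fio1 and the permease Fip1 carries it into the cell. In the siderophore route, the cell makes ferrichrome with Sib1 and takes up iron-loaded siderophores through Str1, Str2 and Str3. When iron is plentiful, the GATA-type repressor Fep1 keeps genes of both routes low, and when iron is scarce, Php4 joins the CCAAT-binding complex and represses genes of iron-using proteins. Mitochondria build iron-sulfur clusters, and Atm1, an ABC transporter of their inner membrane, exports a precursor that the cytosol needs for its own iron-sulfur proteins.

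Values are RMA expression values on the log2 scale, so a difference of 1 is a 2-fold change. With 1 array per culture there was no spread between replicates and no test was made, so precision is limited by the number of arrays. A gene is said to have risen or fallen at a difference of 2-fold or more, provided that its higher value was not under 9.82. This brightness limit is the 30th percentile of the whole table. Of the 10 genes, 9 reached this limit on at least 1 array and 7 on all 3, and str3 reached it on none. The standard deviation of the differences over all 4981 features was 0.413 for deletion minus wild type, 0.374 for adapted minus wild type and 0.245 for adapted minus deletion. The targeted gene eca39 read 14.60 on the wild-type array, 6.12 on the deletion array and 6.37 on the adapted array. This checks the labels of wild type against the mutants, but not which mutant culture was the adapted one.

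The ferroxidase and permease genes of the reductive route were highest in the deletion culture and lowest in the adapted culture. The ferroxidase gene fio1 (SPAC1F7.08) read 10.18 on the wild-type array, 10.80 on the deletion array and 9.71 on the adapted array. Its adapted value was thus the only one of the 3 below the brightness limit. The permease gene fip1 (SPAC1F7.07C) read 10.62 on the wild-type array, 11.39 on the deletion array and 10.35 on the adapted array. Both genes had the same order of cultures, with wild type in between. Against wild type, fio1 differed by 0.62 in the deletion culture and by -0.47 in the adapted culture, and neither difference reached 2-fold. The differences of fip1 from wild type were 0.77 and -0.27. Between the adapted and the deletion culture, both genes fell. The log2 difference was -1.09 for fio1, which is 2.12-fold lower, and -1.04 for fip1, which is 2.05-fold lower. Both lie close to the threshold of 2-fold, and only 22 of the 4981 features had a lower difference than fio1 in this comparison and 24 a lower one than fip1. In the order of all features by difference, fio1 and fip1 thus stood at the 0.452 and 0.492 percentile.

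**Figure D1:**
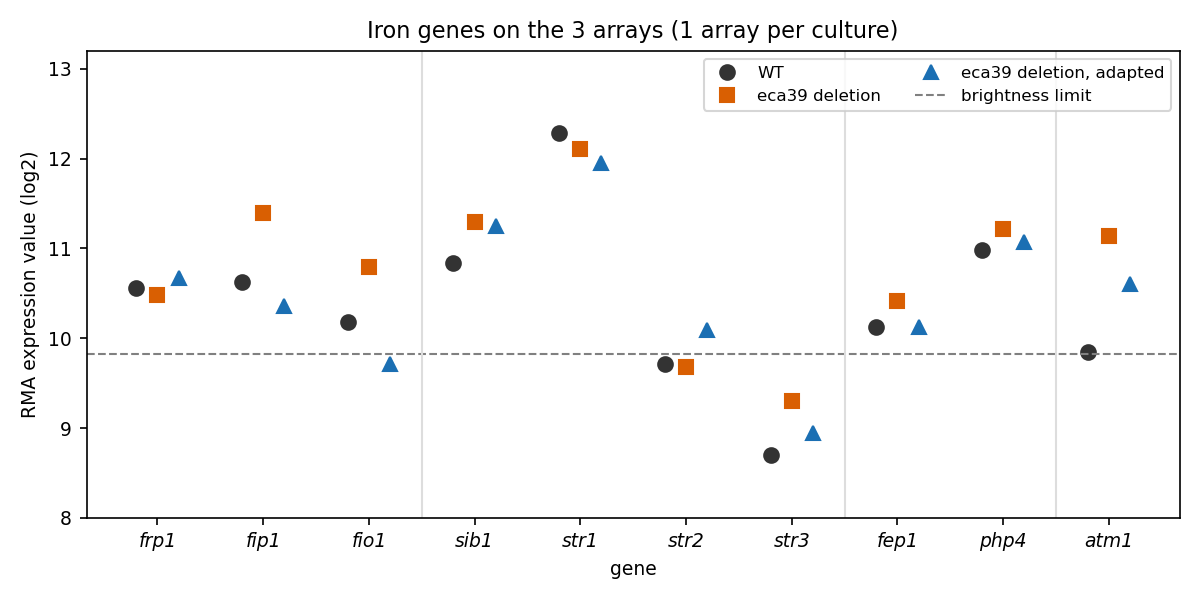
RMA expression values (log2) of the 10 iron genes on the wild-type, eca39 deletion and adapted eca39 deletion arrays, with 1 point per array and no error bars because each culture had 1 array. Vertical lines part reductive uptake, siderophore genes, regulators and atm1, and the dashed line is the brightness limit of 9.82; fip1 and fio1 are highest in the deletion culture and lowest in the adapted culture.

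The third gene of the reductive route, the ferric reductase gene frp1 (SPBC1683.09C), had neither this order nor this size. It read 10.56 on the wild-type array, 10.48 on the deletion array and 10.67 on the adapted array. Its 3 values spanned 0.19 on the log2 scale, against 1.09 for fio1 and 1.04 for fip1. The difference from wild type was -0.07 before and 0.11 after adaptation, the reverse of the order seen in its route partners. In size, the first of these was exceeded by 63.7% and the second by 50.3% of all features.

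The 4 siderophore genes did not share a pattern, and none rose or fell in any comparison. The ferrichrome synthetase gene sib1 (SPAC23G3.02C) read 10.84 on the wild-type array, 11.30 on the deletion array and 11.25 on the adapted array. It was thus higher than wild type by 0.46 and 0.41, and the mutant cultures differed from each other by only -0.05. The transporter gene str1 (SPBC4F6.09) was lower than wild type in both mutant cultures, with values of 12.29, 12.11 and 11.95 in wild type, deletion and adapted culture. The str1 differences from wild type were -0.18 and -0.33. The transporter gene str2 (SPCC61.01C) stood apart only in the adapted culture, with 9.72 on the wild-type array, 9.67 on the deletion array and 10.09 on the adapted array. The last of these alone reached the brightness limit, and the difference between the adapted and the deletion culture was 0.42, the largest positive one among the 10 genes. The third transporter gene, str3 (SPAC1F8.03C), whose product also takes part in heme uptake, read 8.70, 9.31 and 8.95. Its difference of 0.61 in the deletion culture was close to that of fio1 in size, but str3 was dim on every array. In the adapted culture str3 differed from wild type by 0.25, a value that dropped to 0.12 after removal of a lowess curve and to 0.021 under repeated quantile normalization.

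The genes of the regulators varied less than most of the uptake genes. The repressor gene fep1 (SPAC23E2.01) read 10.12 on the wild-type array, 10.42 on the deletion array and 10.12 on the adapted array. The wild-type and adapted values of fep1 were identical in the deposited table, which the median polish step of RMA can produce. The gene php4 (SPBC16E9.01C) read 10.98, 11.21 and 11.07. Both regulator genes were thus highest in the deletion culture, by 0.30 for fep1 and by 0.23 for php4 over wild type. Between the adapted and the deletion culture they differed by -0.30 and -0.14. Differences larger in size than that of fep1 between the deletion culture and wild type were found for 21.9% of all features, and for php4 this share was 29.2%. The arrays measure messenger RNA and not the iron-bound state of Fep1 or the location of Php4, through which both proteins are known to be controlled.

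The mitochondrial transporter gene atm1 (SPAC15A10.01) had the widest span of the 10 genes. It read 9.84 on the wild-type array, just above the brightness limit, 11.14 on the deletion array and 10.60 on the adapted array. Both mutant cultures were above wild type, the deletion culture more so. The atm1 signal rose by 1.30 in the deletion culture, which is 2.46-fold, and 80 of the 4981 features had a higher difference. In the adapted culture the difference of 0.76, or 1.70-fold, did not pass the size rule. The adapted value of atm1 lay 0.54 below that of the deletion culture, the third largest drop among the 10 genes after fio1 and fip1. Unlike fio1 and fip1, atm1 stayed above wild type in the adapted culture.

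Counted over the 10 genes, 7 lay above wild type and 3 below it in the deletion culture, with a median of 0.38, while the median of all features was 0 and 45.9% of them lay above wild type. Of the 10, atm1 was the 1 that rose and none fell. Over all features, 1.65% rose and 0.0602% fell in this comparison, and the count among the iron genes rests on a single gene. In the adapted culture 6 genes lay above wild type, near the share of 56.1% over all features. Of the others, 3 lay below wild type and fep1 was level with it. The median was 0.10 (0.037 under repeated quantile normalization and 0.048 after median centring), beside 0.027 for all features, none of the 10 rose or fell, and the shares over all features were 1.06% and 0.161%. Between the adapted and the deletion culture 2 of the 10 genes were higher, str2 and frp1, and 8 were lower. Over all features, 50.8% were higher and 1809 of 4981 were lower. The median of the 10 was -0.23 beside 0.0029 for all features. Here fio1 and fip1 fell and none rose, while 0.341% of all features fell and 0.141% rose. The cultures were measured in bulk, so a change in the share of cells that express a gene and a change in RNA per cell cannot be told apart.

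Of the 10 genes, 4 lay on opposite sides of wild type in the mutant cultures, beside 18.9% of all features. These were fio1 and fip1, above wild type in the deletion culture and below it in the adapted culture, and frp1 and str2, which lay the other way round. For frp1 and str2 the difference in the deletion culture was only -0.07 and -0.04. When both differences had to be at least 0.1 in size, fio1 and fip1 remained, beside 3.67% of all features. Both differences of a gene use the same wild-type array.

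**Figure D2:**
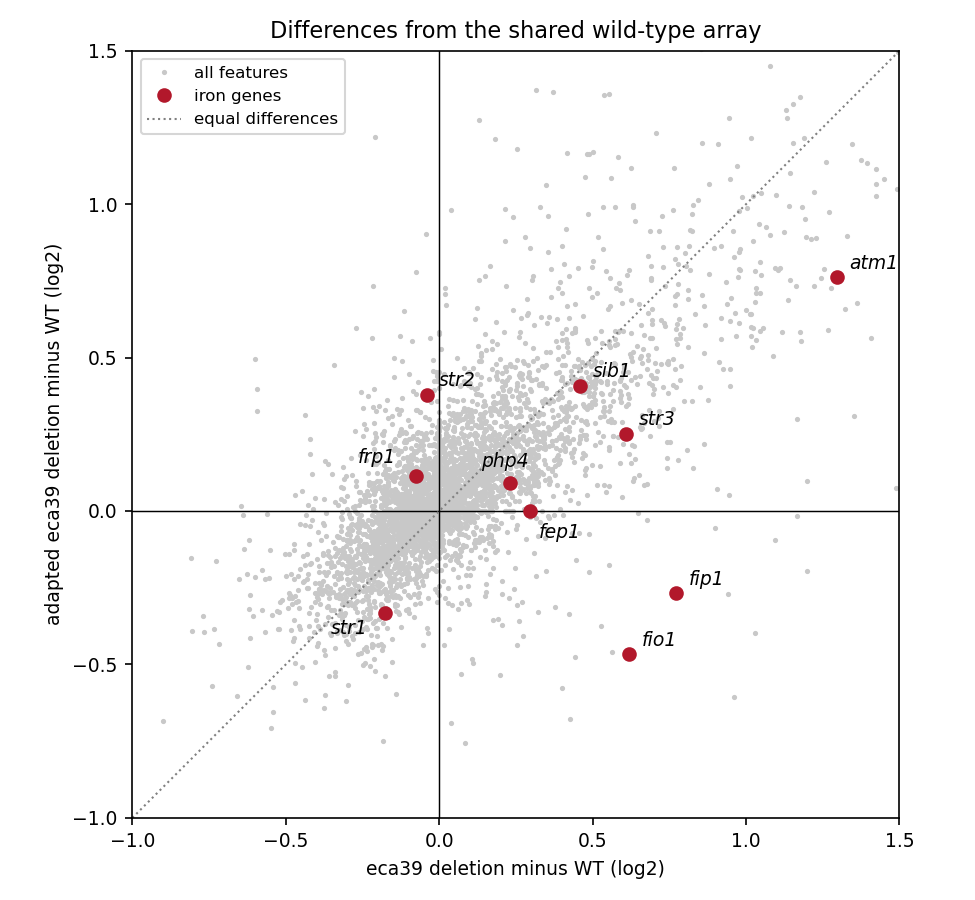
Log2 difference of the eca39 deletion culture from wild type (horizontal) against that of the adapted deletion culture from wild type (vertical), for the 10 iron genes (red) and all features (grey), of which 94 lie outside the axes. Points in the lower right field, fio1 and fip1 among them, were above wild type in the deletion culture and below it in the adapted culture, and both axes share 1 wild-type array.

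The pattern of fio1 over the 3 arrays was closest to that of fip1. Likeness was measured as the distance between the pairs of log2 differences from wild type, over 2162 other named genes at the brightness limit on at least 1 array. No gene was nearer to fio1 than fip1, at a distance of 0.25. The next were cys2 (0.29), hsr1 (0.30), obr1 (0.30) and atp11 (0.35). Of these, cys2 read 11.08 on the wild-type array, 11.46 on the deletion array and 10.77 on the adapted array, and obr1 read 14.03, 14.52 and 13.83. The same measure was applied to fip1 and atm1 after their values had been seen. For fip1 the nearest was the dihydroxyacetone kinase gene dak2 (0.17), which read 10.75, 11.69 and 10.48, and 3 genes were nearer than fio1. For atm1 the nearest were the ornithine carbamoyltransferase gene arg3 (0.050), the alcohol dehydrogenase gene adh4 (0.19), pdx1 (0.21) and gcn2 (0.24), which encodes a kinase that senses amino acid shortage. The arg3 signal read 11.16, 12.41 and 11.95, and like atm1 it was highest in the deletion culture and stayed above wild type in the adapted culture. Such distances rest on 3 arrays that share the same cultures and describe only the shape of the values.

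Some of the 10 genes lie beside another iron gene, by the order of protein-coding genes in assembly ASM294v3. This held for 5 of the 10, in 4 pairs. The genes fio1 and fip1 are direct neighbours on chromosome I. The ferrichrome synthetase gene sib1 neighbours sib2, the gene of an ornithine oxygenase that makes the precursor of ferrichrome. Unlike sib1, sib2 hardly varied, with 9.85 on the wild-type array, 9.85 on the deletion array and 9.84 on the adapted array. These values lay only just above the brightness limit, and those of wild type and deletion culture were identical, as for fep1 in another comparison. The reductase gene frp1 on chromosome II neighbours pcl1, the gene of a vacuolar iron importer, which read 12.22, 12.33 and 12.39. Beside str3 lies shu1, a gene of heme uptake that was not found by name on the array. A neighbour of atm1 outside the iron lists, spc34, read 9.20, 9.80 and 9.60 and so had the same order of cultures as atm1, with a difference of 0.61 between the deletion culture and wild type, but all 3 values lay under the brightness limit. Its other neighbour, taf12, differed from wild type by 0.053 in both mutant cultures.

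Other iron genes were described from 7 lists, in which 43 of 59 listed genes were found by name, and none of the 43 rose or fell in any comparison. Since at most 1.65% of all features did so in 1 direction, a count of 0 is near that background. Genes of mitochondrial iron-sulfur assembly mostly lay above wild type in both mutant cultures, as atm1 did. In the deletion culture all 8 found of 12 listed lay above wild type, with a median of 0.48, and in the adapted culture 7 did, with a median of 0.40. Over all features, 45.9% and 56.1% lay above wild type in these comparisons. The genes nfs1 and etp1 exceeded wild type in the deletion culture by only 0.014 and 0.022. Median centring moved the median of all features in that comparison by more than this, to -0.056. The glutaredoxin gene grx5 read 11.18 on the wild-type array, 11.89 on the deletion array and 11.71 on the adapted array. The scaffold gene isu1 read 12.40, 13.04 and 12.84, and isd11, whose product is a partner of the cysteine desulfurase, read 11.12, 11.69 and 11.52. These 3 genes were thus above wild type in both mutant cultures, by 0.40 to 0.71. The desulfurase gene nfs1 itself did not share this, with 12.67, 12.68 and 12.64. Between the adapted and the deletion culture the median of this list was -0.13.

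Of the 9 genes found for enzymes that carry iron-sulfur clusters, 6 lay above wild type in each mutant culture, but not the same 6. For example, glt1 was among them only before adaptation. The medians were 0.25 before and 0.11 after adaptation. After adaptation, 6 of 9 is near the share of 56.1% over all features. The largest difference was that of the biotin synthase gene bio2, at 0.69 before and 0.56 after adaptation. The isopropylmalate isomerase gene leu2, of leucine synthesis, differed by 0.41 and 0.32. The glutamate synthase gene glt1 was 0.31 above wild type in the deletion culture and level with it in the adapted culture, at 13.01 on both arrays. For cytosolic iron-sulfur assembly, which depends on Atm1, 2 of 8 listed genes were found. Of these, tah18 differed from wild type by 0.12 and -0.12, and mms19 by -0.07 and 0.0036.

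The vacuolar genes differed in size. The gene abc3, whose product releases stored ferrichrome iron from the vacuole, read 10.98 on the wild-type array, 11.86 on the deletion array and 11.35 on the adapted array. Its difference of 0.88 in the deletion culture was the largest in that comparison among the 43 listed iron genes. The other vacuolar gene, pcl1, differed by 0.10 and 0.17. Among 7 of 8 genes found for siderophore synthesis and for the partners of Fep1 and Php4, the CCAAT-complex gene php2, dim on all arrays, differed from wild type by 0.56 in the adapted culture. This value was 0.38 after removal of a lowess curve and 0.20 under repeated quantile normalization. In the same list, grx4, whose glutaredoxin product binds Fep1 and Php4, differed from wild type by 0.39 and 0.15, and php3 by 0.34 and 0.36. The medians of the list were 0 and -0.012.

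Heme genes lay on both sides of wild type, with medians of -0.040 before and -0.024 after adaptation over 9 of 10 listed genes. The first enzyme of heme synthesis, hem1, read 12.66 on the wild-type array, 12.93 on the deletion array and 12.36 on the adapted array, the same order as fio1 and fip1. Between the adapted and the deletion culture, hem1 alone of the 9 was lower and the other 8 were higher, with a median of 0.083. Over all features, 50.8% were higher in this comparison. The ferrochelatase gene hem15 differed from wild type by 0.23 and 0.47, and the coproporphyrinogen oxidase gene hem13 by -0.38 and -0.20.

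Fio1 needs copper, and the copper genes were read for that reason. The copper transporter gene ctr4 read 11.90 on the wild-type array, 11.85 on the deletion array and 12.80 on the adapted array. The difference of 0.95 between the adapted and the deletion culture lay just under 2-fold and had the opposite direction to that of fio1. The copper pump gene ccc2, whose product loads copper onto secreted oxidases, differed from wild type by 0.61 and 0.38, and the copper-sensing regulator gene cuf1 by -0.27 and -0.20. Over the 6 copper genes, all found, the medians were 0.047 and 0.065. Between the adapted and the deletion culture 3 of the 6 were higher and 3 lower, with a median of -0.010. Over all features, 50.8% were higher in this comparison.

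**Figure D3:**
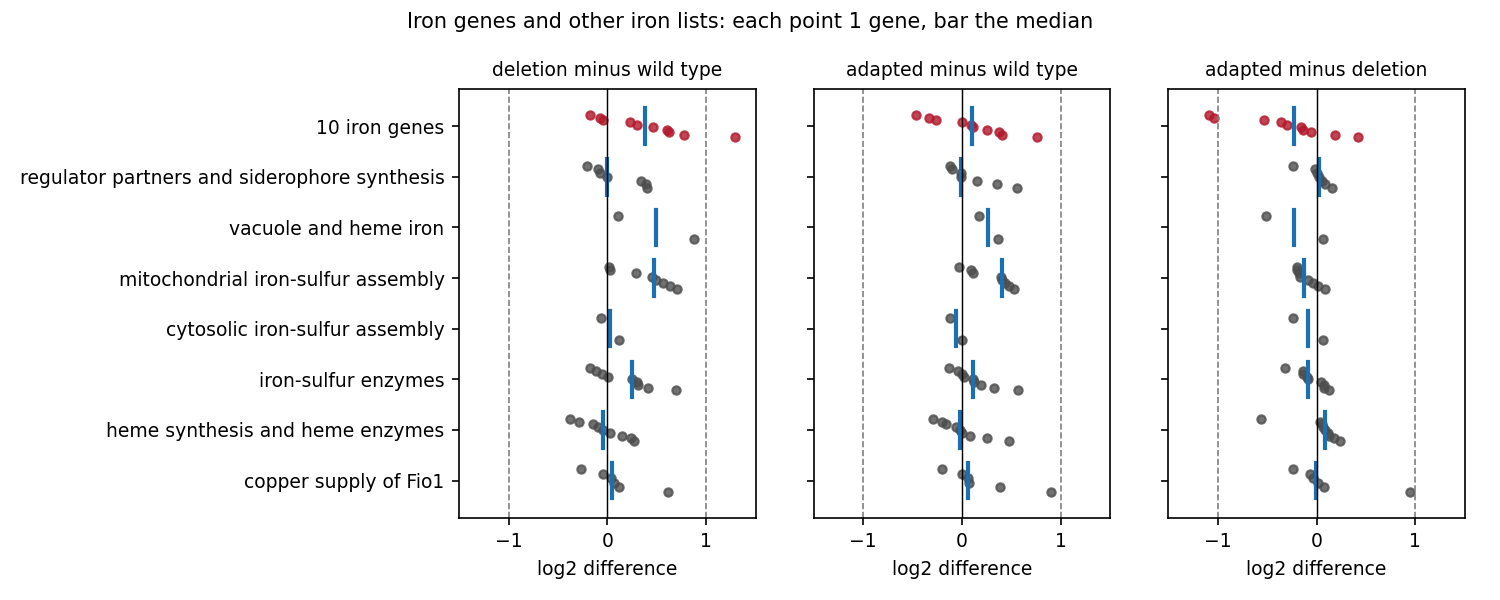
Log2 differences of the 10 iron genes (red) and of the genes found in 7 other iron lists (grey), in the 3 comparisons, with 1 point per gene, the list's median as a blue bar and dashed lines at 2-fold. All points of mitochondrial iron-sulfur assembly lie above 0 in the deletion culture, nfs1 and etp1 only just. The genes fio1 and fip1 are the 2 iron genes beyond 2-fold between the adapted and the deletion culture.

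The array medians lay at 10.64 for wild type and 10.69 for both mutant cultures. All strains are labelled h-, the mating type of M cells. The 5 M-type markers read 6.59 to 12.31 in wild type, 7.46 to 12.35 in the deletion culture and 9.28 to 13.30 in the adapted culture, with a summed level of 12.67, 12.78 and 13.74 on the log2 scale. The 2 P-type markers map2 and map3 read between 7.29 and 8.38 on all arrays. The M-type level was thus highest in the adapted culture, where fio1 and fip1 were lowest, and its part in the iron gene differences was not tested.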

How the data were processed

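Total RNA of 3 cultures was labelled with biotin by a 3' IVT kit and hybridised to Affymetrix arrays, per the labels' protocols. The authors deposited RMA values on a log2 scale, and the submitters' processing notes name the affy package. The log base was taken as 2 from the range of the values, 2.99 to 15.17. RMA sets arrays to a common distribution, so a shift of most transcripts would not be seen. Genome build and software versions were not stated.

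In the platform annotation, 2917 of 4999 probe sets had 1 name, 20 several and 2062 none, so a listed gene without a name there could not be found. A gene table of assembly ASM294v3 matched 2914 and gave current names and gene order. Probe sets of 1 gene were averaged, giving 4981 features. Differences were described by the size rule (2-fold, brightness limit at the 30th percentile) over all features, and this rule was tested on simulated data. With no replicates, the simulated noise was set from the differences between the mutant arrays, so this gives no precision for calls near 2-fold. The members and lists were chosen with earlier results of these data known. The text names all 10 members, up to 3 genes per other list by size of difference and the 4 genes nearest to fio1. The genes nfs1, etp1, sdh2, rip1, sib2, spc34 and taf12 and those nearest to fip1 and atm1 were chosen after their values were seen. Promoter motifs were not analysed here. Python 3.11.15, pandas 2.3.3 and statsmodels 0.14.6 were used.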

Additional observations from a re-analysis of the deposited data

Results flagged for a closer look

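Of the 53 iron genes found, the 10 members and 43 from the other lists, 4 lay on opposite sides of wild type by at least 0.1 on the log2 scale in the deletion and the adapted culture, beside 3.67% of all features. Their differences between the adapted and the deletion culture were -1.09 for fio1, -1.04 for fip1, -0.56 for hem1 and -0.23 for tah18. The place of tah18 among them depended on the scaling. Its difference of 0.12 between the deletion culture and wild type was 0.070 under repeated quantile normalization and 0.062 under median centring, both below 0.1. With 1 array per culture, none of these differences was tested.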

How the results depend on the processing

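The 10 genes gave 90 recomputed differences under 3 scaling settings (repeated quantile normalization, a lowess curve removed from each pair of arrays, and each array centred on its median). All 90 kept their side of the size rule, none changed sign, and the largest shift was 0.23, that of str3 in the adapted culture. Taking the brightest probe set alone could not change them, since each had 1 probe set. No scaling moved the median of all features by more than 0.1. At a fold threshold of 1.5, 3 of the 10 genes passed in the deletion culture (fio1, fip1 and atm1, with 219 of all features in place of 85) and 1 in the adapted culture (atm1, with 145 in place of 61). At a fold threshold of 3, 0 passed in the deletion culture and 0 between the adapted and the deletion culture, where the counts over all features were 38 in place of 85 and 5 in place of 24. Over all features, 25 in place of 61 passed 3-fold in the adapted culture, and 79 in place of 24 passed 1.5-fold between the mutant cultures. The count of genes on opposite sides of wild type was 2 in place of 4 when both differences had to be at least 0.1. Over all features this count was 183 in place of 943. Among the 10 genes it was 5 under the 3 scaling settings, which moved fep1 off its tie with wild type. The count over all features also rose, to 1126 under quantile normalization, 1302 under lowess and 1024 under median centring. Of 63 recomputed medians of the other lists, added after seeing the data, 5 changed sign, all near 0. These were siderophore synthesis and regulator partners between the adapted and the deletion culture (-0.013 under lowess), and in the deletion culture cytosolic iron-sulfur assembly (-0.0022 under quantile normalization and -0.029 under median centring), heme (0.0099 under lowess) and copper (-0.0082 under median centring). The cause was not tested. Without the brightness limit, the counts over all features were 152, 133 and 46 in place of 85, 61 and 24, and the counts among the 10 genes stayed at 1, 0 and 2. No paired analysis was possible because each group had 1 array. Dim genes such as str3 and php2 have the least certain differences.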
